A study of Mus musculus with 6 samples.

Results

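Regulators of G-protein signalling (RGS proteins) and G-protein coupled receptor kinases (GRKs) were followed as 10 genes: Rgs1, Rgs2, Rgs10, Rgs12, Rgs14, Rgs16, Rgs18, Rgs19, Grk3 and Grk5. The genes were chosen from these 2 families with their KI and WT intensities on these arrays already known. Their differences between genotypes are therefore given as a description. No p-value is printed for them, and a call of a member only marks that it passed the threshold. All probe sets whose single platform gene symbol was 1 of the 10 names were taken, which gave 22 of the 45037 non-control probe sets of the array. RNA of knockin (KI) mice was measured on 3 arrays and RNA of wild-type (WT) mice on another 3, all labelled as strain C57BL/6. The series title names the IVVY motif of RANK, the receptor for RANKL, and KI was set against WT to find genes that the motif bears on. The labels give neither the altered residues nor whether 1 or both alleles carried them. All 6 cultures were bone marrow macrophages that had been kept for 24 hours in M-CSF at 44 ng/ml with RANKL at 100 ng/ml, so no culture without RANKL stands beside them. Nothing in the labels says that the 3 arrays of a genotype came from separate mice, so the SD and the tests measure the spread between these arrays, which may be technical.

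A receptor of the G-protein coupled class switches on a heterotrimeric G protein by letting its alpha subunit take up GTP, and the alpha subunit and the beta-gamma pair then act on adenylyl cyclases, phospholipase C beta and ion channels. RGS proteins speed up the hydrolysis of that GTP and so shorten the signal, while GRKs phosphorylate the active receptor and make it a binding site for arrestins, which uncouple it. In osteoclast precursors these proteins sit between chemokine, lipid and nucleotide receptors and cell migration, and RGS10 and RGS12 have been reported in mouse cells to take part in the calcium oscillations that activate NFATc1, the master transcription factor of the osteoclast.

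The macrophage label of the cells was borne out by macrophage markers. All 8 macrophage markers were bright and had a higher level in KI cells, with a summed intensity of 107628 to 116890 on KI arrays and 59288 to 78955 on WT arrays. Of 8 osteoclast markers 6 fell, and their sum ran from 29271 to 32597 on KI arrays and from 63921 to 73216 on WT arrays. In bulk RNA, fewer cells of a type and less RNA per cell cannot be told apart. The 9 neutrophil and progenitor markers summed to 22290 to 43860 on KI arrays and 15960 to 19995 on WT arrays, with S100a8 called higher. The 6 measured stromal and osteoblast markers summed to 10043, 2638 and 8762 on KI arrays and 8812, 5476 and 2659 on WT arrays. None of them was called, and their sum varied widely within each genotype. The median intensity of an array lay between 83.0 and 84.8. Over all tested probe sets, 4345 passed as higher and 5756 as lower in KI cells. After scaling to the spike-in probe sets these counts were 2546 and 9011, and after scaling to an older set of probe sets for the same spike-ins 728 and 10586. The median difference of all tested probe sets was -0.04 on the log2 scale as deposited, -0.25 under the first scaling and -0.57 under the second. Each scaling divides an array by a common factor, so it moves all differences by nearly the same amount. A change of sign or of call under a scaling is therefore to be read against those medians. The gene of RANK itself, Tnfrsf11a, was lower in KI cells on 1 of 2 probe sets. That probe set gave 399, 549 and 504 on KI arrays and 1143, 979 and 1045 on WT arrays. The other gave 826, 1006 and 1050 on KI arrays and 1134, 634 and 775 on WT arrays. Its groups overlapped, with a log2 difference of 0.22 that was not called. These values do not check the labels, since the parts of the transcript that the probe sets cover were not analysed here.

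Of the 22 member probe sets, 16 had a mean log2 intensity above the median of the array and were tested, and each of the 10 genes kept at least 1 of them. The other 6 belonged to Rgs2, Rgs12, Rgs16 and Grk5. By limma, with p-values adjusted over all 22518 tested probe sets and a threshold of 0.05, 6 member probe sets of 5 genes were called higher in KI cells, where 19.3% of all tested probe sets were. The 3 probe sets of Grk3 were called lower, where 25.6% of all tested probe sets were. On 11 of the 16 the KI and WT values did not overlap, against 60.9% of all tested probe sets. The median log2 difference of the 16 was 0.35 and that of all tested probe sets -0.04. Since the genes were picked with these differences known, nothing is read from the counts.

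**Figure D1:**
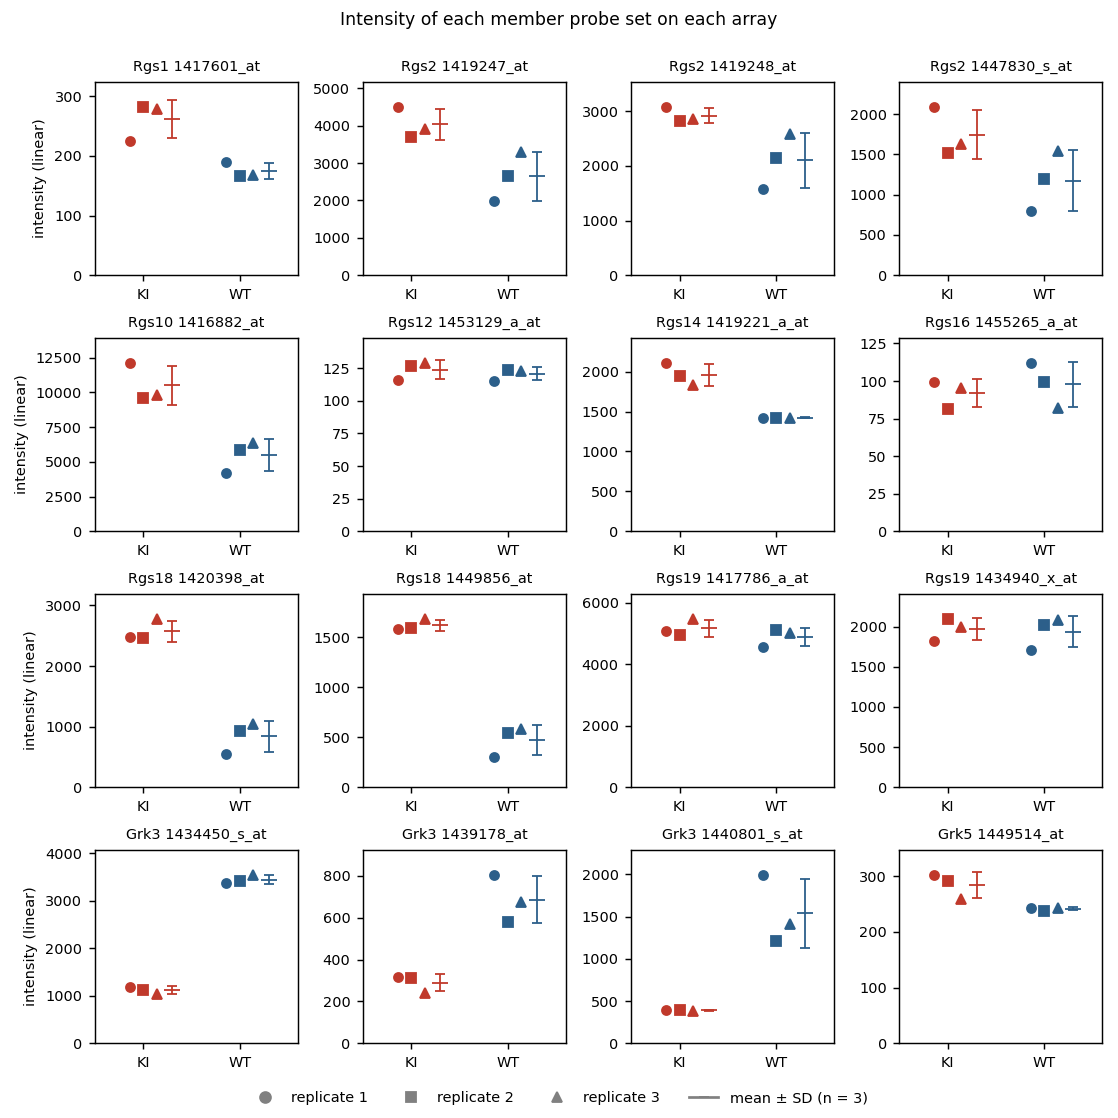
Intensity on a linear axis from 0 for each of the 16 tested probe sets, with KI arrays in red on the left and WT arrays in blue on the right; symbols mark the replicate number and the bars the mean ± SD (n = 3 each). The KI and WT arrays are far apart for Rgs18 and Grk3. They lie close for Rgs2, with overlap at 1447830_s_at, and overlap for Rgs12, Rgs16 and Rgs19.

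The sequences before the start sites of 3 members are shown because 2 of these genes, Rgs2 and Rgs10, were called higher and lie in the promoter table, and Rgs16, which belongs to the same subfamily as Rgs2, was dim on these arrays. The table of RefSeq promoters (build GRCm38.p6) matched 6 of the 10 genes by symbol. The 250 bases before each start site were searched on both strands for 4 short motifs: TGGAAA for NFAT, TGANTCA for AP-1, TGACG as the half-site of the cAMP response element, and GAGGAA for PU.1. Capitals mark a match, and each sequence runs 5′ to 3′ on the gene's strand. Rgs2 lies on the minus strand at chr1:144004150-144004399, Rgs10 on the minus strand at chr7:128418173-128418422 and Rgs16 on the plus strand at chr1:153740103-153740352.
Rgs2: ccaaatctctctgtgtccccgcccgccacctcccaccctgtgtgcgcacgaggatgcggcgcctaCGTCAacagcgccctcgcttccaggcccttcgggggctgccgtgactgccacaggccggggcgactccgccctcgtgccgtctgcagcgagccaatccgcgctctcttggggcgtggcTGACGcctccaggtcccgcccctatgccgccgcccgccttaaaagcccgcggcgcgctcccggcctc
Rgs10: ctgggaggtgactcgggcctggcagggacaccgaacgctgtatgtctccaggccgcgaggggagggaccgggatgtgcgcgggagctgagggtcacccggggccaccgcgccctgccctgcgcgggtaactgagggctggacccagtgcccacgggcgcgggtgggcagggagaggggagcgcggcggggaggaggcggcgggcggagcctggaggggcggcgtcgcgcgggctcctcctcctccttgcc
Rgs16: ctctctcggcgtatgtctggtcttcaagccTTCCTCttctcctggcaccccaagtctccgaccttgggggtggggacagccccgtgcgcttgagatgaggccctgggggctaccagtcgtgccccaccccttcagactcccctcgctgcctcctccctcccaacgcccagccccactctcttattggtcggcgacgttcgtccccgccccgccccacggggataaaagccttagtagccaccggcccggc

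The half-site of the cAMP response element occurred at 2 places before Rgs2, at -185 to -181 on the other strand and at -67 to -63 on the gene's own strand, counted back from the base before the start. Of all 32851 promoters of this length in the table, 17.8% held that motif, and so did 1 of the start sites of Rgs12. Rgs10 had none of the 4 motifs in this window, and Rgs16 had the PU.1 motif at -220 to -215, which 23.3% of promoters held and which also stood before Rgs12 and Rgs19. The AP-1 motif, found in 6.75% of promoters, stood before 1 of the 2 start sites of Rgs12. The NFAT motif, found in 18.6%, occurred before Grk5 alone among the 6 genes. These are matches of letters and not measured binding sites.

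Rgs18 had the widest separation between genotypes among the RGS genes. It encodes a small RGS protein of the R4 subfamily that is abundant in blood cells of the myeloid and megakaryocyte lineages and acts on Gi and Gq alpha subunits. The probe set 1420398_at gave 2477, 2469 and 2776 on the KI arrays, against 550, 930 and 1036 on the WT arrays. The lowest KI array was 2.38 times the highest WT array, and WT 1 was the lowest of the 6. Its means were 2574 ± 175 in KI cells and 839 ± 255 in WT cells (SD, n = 3 each), a log2 difference of 1.67 (SE 0.23), or 3.18-fold. The probe set 1449856_at gave 1583, 1589 and 1683 on the KI arrays and 304, 544 and 578 on the WT arrays, a log2 difference of 1.82 (SE 0.24), or 3.54-fold. Both probe sets thus showed the same order of arrays within WT and nearly equal KI arrays. Both were called higher in all 20 alternatives, with differences of 1.14 to 1.84 for the first and 1.29 to 1.99 for the second. The platelet marker Pf4, which macrophages also make, was higher in KI cells too (7032, 8688 and 8321 on KI arrays, against 2011, 2898 and 2433 on WT arrays). Itga2b, which marks megakaryocytes and platelets, had 198 to 218 on KI arrays and 212 to 220 on WT arrays, and Gp9 and Gp1bb likewise overlapped between genotypes.

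Rgs10, a short RGS protein that consists of little more than the RGS domain, was the next in size. Its single probe set gave 12122, 9603 and 9797 on the KI arrays, against 4199, 5872 and 6373 on the WT arrays. No KI array came near a WT array, KI 1 was the highest and WT 1 the lowest. The means were 10507 ± 1402 in KI cells and 5481 ± 1138 in WT cells (SD, n = 3 each), and the log2 difference was 0.95 (SE 0.17), or 1.94-fold. Under the older spike-in scaling it was 0.42 and was not called. Without WT 1 and KI 1 it was 0.67 and was called.

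Rgs14, a relative of Rgs10 that also binds Ras-family GTPases and inactive Gi alpha subunits, rose by a smaller step. It gave 2109, 1942 and 1829 on the KI arrays and 1426, 1425 and 1423 on the WT arrays. The WT arrays were nearly identical and all KI arrays lay above them. The log2 difference was 0.46 (SE 0.08), or 1.37-fold. It was 0.25 and not called under the spike-in scaling and -0.07 under the older spike-in scaling. The medians of all tested probe sets under these scalings were -0.25 and -0.57.

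Rgs12, the largest protein of that subfamily, was near the lower end of the tested range. Its tested probe set gave 116, 127 and 129 on the KI arrays and 115, 124 and 123 on the WT arrays, a log2 difference of 0.03 (SE 0.08) with overlapping groups. Its remaining probe sets lay below the filter, between 20.2 and 25.3 for 1 and between 31.3 and 35.9 for the other, with a log2 difference of -0.01 for each.

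Rgs2 and Rgs1 encode small proteins of the R4 subfamily like Rgs18, of which RGS2 is known for its preference for Gq alpha. Of the 4 probe sets of Rgs2, 1419247_at gave 4495, 3703 and 3908 on the KI arrays, against 1975, 2656 and 3292 on the WT arrays. The groups did not overlap, but WT 3 lay only 11.1% below KI 2, and the WT arrays spread more than the KI arrays. The log2 difference was 0.64 (SE 0.18), or 1.56-fold, and was called.

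The probe set 1419248_at of Rgs2 gave 3073, 2818 and 2847 on the KI arrays and 1570, 2151 and 2576 on the WT arrays, a log2 difference of 0.50 (SE 0.17) that was not called. The probe set 1447830_s_at gave 2087, 1517 and 1629 on KI arrays and 795, 1191 and 1541 on WT arrays, with overlapping groups and a log2 difference of 0.61 (SE 0.25), also not called. The dim probe set had 37.0, 32.9 and 31.6 on KI arrays and 23.4, 31.4 and 23.2 on WT arrays. All 4 probe sets thus had a higher KI mean, and on the 3 bright ones WT 1 was the lowest array. The call of 1419247_at ended in 7 of 20 alternatives. These were leaving out KI 1 (0.56), KI 3 (0.66) or WT 2 (0.66), no filter (0.64), the description number as a covariate (0.71), the replicate block (0.64) and the older spike-in scaling (0.11). Without WT 1 and KI 1 its difference was 0.36, and it was called. Under the older spike-in scaling the 3 bright probe sets differed by 0.11, -0.03 and 0.08. Leaving out WT 1 gave 0.31 for 1419248_at, with a call, and 0.35 for 1447830_s_at, without one. Leaving out WT 3 gave 0.66 and 0.83, both called.

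Rgs1, known from B cells and macrophages as a brake on chemokine receptor signals, gave 225, 282 and 279 on the KI arrays and 190, 166 and 168 on the WT arrays. All KI arrays lay above all WT arrays, and here WT 1 was the highest of its group and KI 1 the lowest of its own. The means were 262 ± 32.3 in KI cells and 175 ± 13.6 in WT cells (SD, n = 3 each), a log2 difference of 0.58 (SE 0.12), or 1.49-fold. It was not called under the spike-in scaling (0.37), under the older one (0.05) or with the number in the sample description as a covariate (0.40). The 6 measured B cell markers summed to 399 to 473 on KI arrays and 380 to 519 on WT arrays, with 5 of them below the filter (Cd79a, Ms4a1, Pax5, Vpreb1 and Igll1), and the 5 T and NK cell markers to 271 to 275 on KI arrays and 244 to 275 on WT arrays.

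Rgs2, Rgs1 and Rgs18 are neighbours in the reference. Among protein-coding genes of mouse chromosome 1, Rgs2, Rgs13, Rgs1, Rgs21 and Rgs18 follow each other with no other gene between them. All 3 members of that run had at least 1 probe set called higher as deposited, where 19.3% of all tested probe sets were, and nothing is read from that count. Under the older spike-in scaling Rgs18 kept its calls and neither Rgs1 (0.05) nor Rgs2 (0.11) was called. Rgs13, which lies between Rgs2 and Rgs1, gave 14.3, 13.9 and 14.1 on the KI arrays and 16.5, 12.4 and 15.3 on the WT arrays, at or near the floor of 16 used here. No probe set was paired with Rgs21 alone.

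Rgs16 and Rgs19 did not differ beyond their spread on any tested probe set. Rgs16, an R4 protein that other immune cells switch on after stimulation, gave 99.5, 81.7 and 95.6 on the KI arrays and 112, 99.5 and 81.8 on the WT arrays at its tested probe set. The groups overlapped, with a log2 difference of -0.07 (SE 0.14). Under the older spike-in scaling it was -0.60 and was called, where the median of all tested probe sets was -0.57. Its other probe sets were dim, between 20.5 and 30.3. Rgs19, also called GAIP, carries a string of cysteines near its start that takes up lipid. At its brighter probe set it gave 5075, 4940 and 5466 on the KI arrays and 4549, 5098 and 5006 on the WT arrays, a log2 difference of 0.08 (SE 0.07). The other gave 1817, 2094 and 1996 on KI arrays and 1714, 2021 and 2079 on WT arrays, a log2 difference of 0.03 (SE 0.10). Both sets of arrays overlapped throughout.

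Grk3 was the member that fell, on all 3 of its probe sets. GRK3, whose gene was long called Adrbk2, is recruited to active receptors by free beta-gamma subunits. The probe set 1434450_s_at gave 1194, 1128 and 1032 on the KI arrays, against 3378, 3420 and 3544 on the WT arrays. Both groups were tight, with means of 1118 ± 81.4 in KI cells and 3447 ± 86.2 in WT cells (SD, n = 3 each), and the log2 difference was -1.63 (SE 0.08), or 3.09-fold lower.

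The probe set 1440801_s_at of Grk3 gave 396, 390 and 382 on KI arrays and 1993, 1205 and 1413 on WT arrays, a log2 difference of -1.95 (SE 0.18). The probe set 1439178_at gave 318, 310 and 242 on KI arrays and 804, 580 and 675 on WT arrays, a log2 difference of -1.24 (SE 0.16). On these last probe sets WT 1 was the highest array, while at 1434450_s_at it was the lowest of the WT arrays. The fall of Grk3 was called in every alternative that kept the probe set, with differences of -2.48 to -1.07 over the 3 probe sets. The endings of the IDs mark 2 of them as able to match several transcripts, and the third, 1439178_at, has no such mark.

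Grk5, a kinase of the other GRK branch that is bound to the membrane and does not need beta-gamma subunits, gave 302, 292 and 258 on the KI arrays and 242, 238 and 243 on the WT arrays. The KI arrays all lay above the WT arrays, with a log2 difference of 0.23 (SE 0.09) that was not called as deposited and was called after quantile normalization (0.26). It was 0.03 under the spike-in scaling and -0.30 under the older one. Its dim probe set gave 60.6, 47.4 and 40.1 on KI arrays and 26.2, 41.9 and 33.5 on WT arrays, with overlap.

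**Figure D2:**
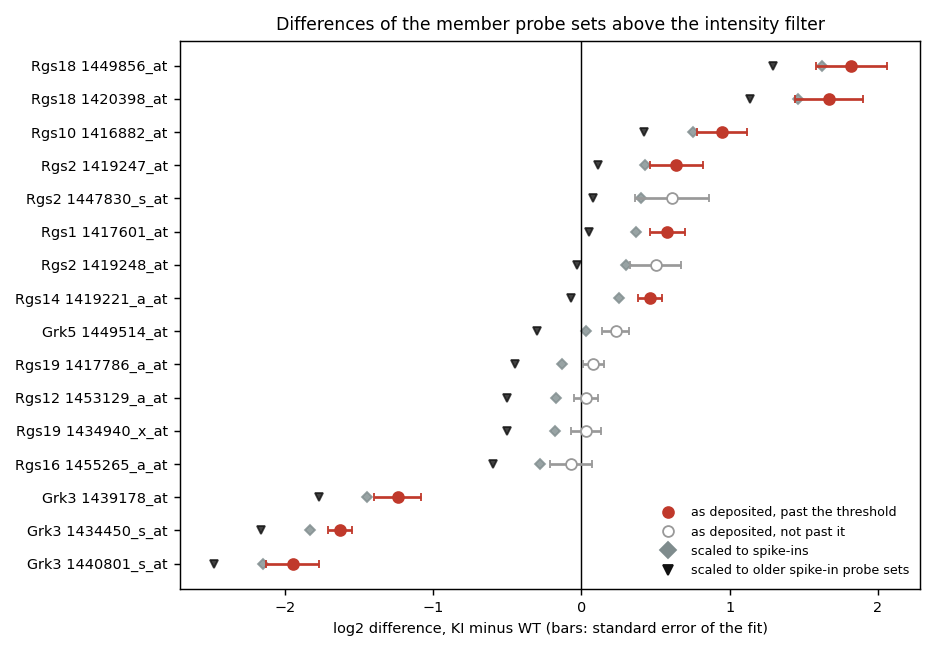
Log2 difference, KI minus WT, for the 16 tested probe sets, with bars for the standard error of the fit; filled circles passed the threshold, and diamonds and triangles give the difference after each spike-in scaling. Rgs18 and Grk3 keep their side of 0 under both scalings, while Rgs14 is 0.46 as deposited and 0.25 and -0.07 after the scalings. The median of all tested probe sets is -0.04 as deposited and -0.25 and -0.57 after the scalings.

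WT 1 stood apart from WT 2 and WT 3 for several members. Its log2 intensity minus the mean of theirs was -0.83 and -0.88 at the Rgs18 probe sets, -0.54 at Rgs10 and -0.58, -0.58 and -0.77 at the 3 bright Rgs2 probe sets. It was 0.61 and 0.36 at 2 Grk3 probe sets. The macrophage marker sum was also lowest on WT 1, at 59288 against 74716 on WT 2 and 78955 on WT 3, and the osteoclast marker sum was highest there, at 73216 against 63921 and 67359. Without WT 1 and KI 1 the log2 differences were 1.42 and 1.54 for Rgs18, 0.75 for Rgs1, 0.40 for Rgs14 and -1.69, -1.19 and -1.76 for Grk3, all called. Rgs10 was 0.67 and called. For Rgs2 they were 0.36 at 1419247_at and 0.27 at 1419248_at, both called, and 0.21 at 1447830_s_at, not called. The part of the cell mixture in these differences was not tested.

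The profiles nearest to 4 member probe sets were looked up by the distance between log2 values centred over the 6 arrays, where a smaller distance means a closer match in size as well as in shape. For Rgs18 (1449856_at) the nearest genes were Tlr13, a receptor for bacterial ribosomal RNA, with a distance of 0.14, then Mfsd6 (0.15) and Ap1s2 (0.19). For Rgs10 they were Ccdc28b (0.04), the clock gene Per3 (0.06) and Znrf2 (0.07). For Grk3 (1440801_s_at) they were Klhl12 (0.20), the enzyme gene Acy1 (0.22) and the secreted protease gene Htra1 (0.23). The next lowest difference among members was that of Rgs16, which was not a called fall, and its nearest genes were Smarcb1 (0.14), Phip (0.15) and Ptpn14 (0.15). With 6 arrays in 2 groups, these are descriptions and carry no test.

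Outside the members, both broadly expressed arrestins rose as deposited, though neither passed under the older spike-in scaling (0.40 for Arrb2 and -0.02 for Arrb1). No other RGS gene passed as deposited. The lists in this and the next paragraphs were drawn up with earlier results of these data known, so their calls and p-values are a description too. Their calls come from a fit with 1 probe set for each of 18193 genes. Of these genes, 11.9% passed as higher and 14.9% as lower in KI cells as deposited. Under the spike-in scaling 1281 of the 18193 genes were higher and 4946 lower, and under the older one 421 and 8198. Arrb2, which binds phosphorylated receptors and uncouples them, gave 5086, 4901 and 5567 on the KI arrays, against 2352, 2939 and 2917 on the WT arrays. The KI arrays all lay far above the WT arrays, with a difference of 0.93 in log2 units (SE 0.11; limma, adjusted p = 0.0048). Its relative Arrb1 gave 2082, 1972 and 1960 on KI arrays and 1151, 1536 and 1574 on WT arrays, a difference of 0.51 in log2 units (SE 0.13; limma, adjusted p = 0.038). Grk4 passed as well (0.33, adjusted p = 0.020 by limma), on a dim probe set with 38.2, 41.4 and 40.2 on KI arrays and 30.2, 30.6 and 34.5 on WT arrays. Of 7 receptor kinases and arrestins measured outside the members, 3 rose, 0 fell and 4 did not pass, with a median log2 difference of 0.07. Grk6 gave 1378, 1318 and 1318 on KI arrays and 1715, 1499 and 1486 on WT arrays, a difference of -0.22 in log2 units (SE 0.07; limma, adjusted p = 0.070). No probe set was paired with Grk2 alone. Grk4 turned to -0.20 under the older spike-in scaling, and Grk6 passed as lower under both scalings (-0.43 and -0.75). The medians of all tested probe sets under these scalings were -0.25 and -0.57. Arrb1 did not pass without KI 1, KI 2, KI 3 or WT 2, nor Grk4 without KI 2, KI 3, WT 1 or WT 2. The calls of this list numbered 2 without KI 1 or WT 1 and 1 without KI 2, KI 3 or WT 2. Over all 18193 genes, 2164 were higher as deposited, 1251 without KI 1 and 1993 without WT 1. Without KI 2, KI 3 or WT 2 these were 1393, 894 and 1309 genes.

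Of 11 other RGS genes measured, 0 passed in either direction by limma, with a median log2 difference of 0.01, and 8 of them lay below the filter on every probe set. At an unadjusted p under 0.05 the count was also 0. The members had been taken out of this family with their values known, so nothing is read from either count. Under the spike-in scaling 1 of the other RGS genes was lower and under the older one 3. Rgs3, Rgs9 and Rgs11 were bright enough to test. Rgs3, a long RGS protein of the R4 subfamily, gave 1286, 900 and 1021 on KI arrays and 862, 1091 and 1239 on WT arrays, a log2 difference of 0.01 (SE 0.19). Rgs9, known from photoreceptors and neurons, gave 285, 302 and 281 on KI arrays and 263, 316 and 298 on WT arrays, a log2 difference of -0.01 (SE 0.09). Rgs11 gave 113, 122 and 125 on the KI arrays and 125, 256 and 217 on the WT arrays. WT 1 matched KI 3 while WT 2 and WT 3 lay well above, and the log2 difference was -0.67 (SE 0.27; limma, adjusted p = 0.13). Without WT 1 it was -0.98 (adjusted p = 0.0065 by limma), and over the alternatives its adjusted p ran from 0.00018 to 0.29.

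**Figure D3:**
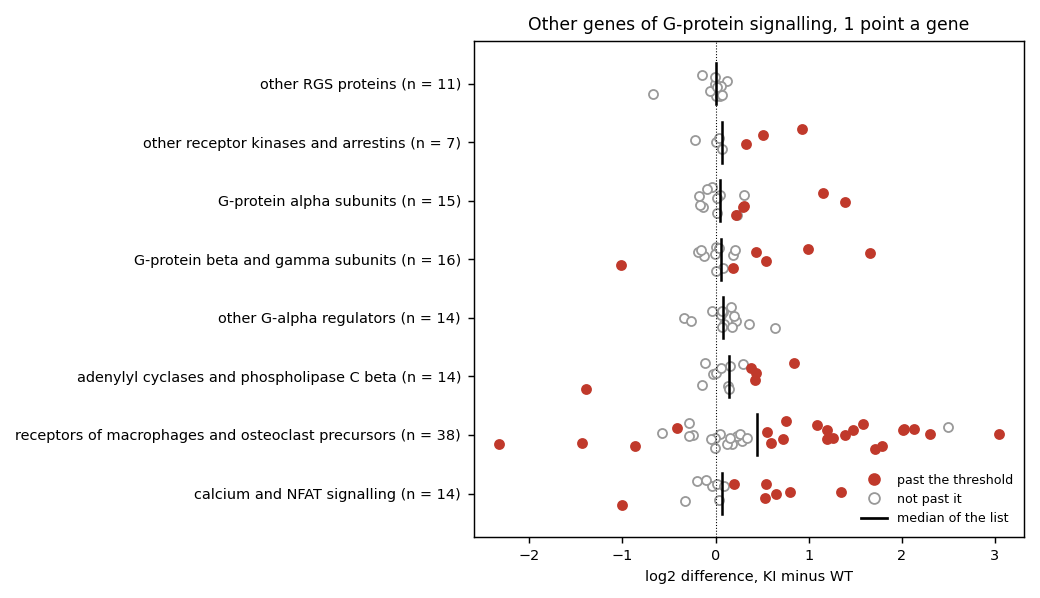
Log2 difference, KI minus WT, for each measured gene of 8 lists outside the members, with 1 point a gene; filled points passed the threshold and the black line is the median of the list. No other RGS gene passed, where the members had been taken out of that family with their values known. Among the receptors 18 of 38 passed as higher and 4 as lower.

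G-protein subunits that passed were mostly higher in KI cells as deposited, whereas under the older spike-in scaling 2 alpha subunits were higher and 5 lower, and 1 beta or gamma subunit was higher and 5 lower. Of 15 alpha subunits measured, 5 rose, 0 fell and 10 did not pass, with a median log2 difference of 0.05. Gna15, a promiscuous alpha subunit of the Gq class found in blood cells, gave 612, 588 and 548 on KI arrays and 217, 240 and 209 on WT arrays, a difference of 1.39 in log2 units (SE 0.08; limma, adjusted p = 0.0012). Gna12, another alpha subunit, gave 4567, 3649 and 3969 on KI arrays and 1310, 2051 and 2187 on WT arrays, a difference of 1.16 in log2 units (SE 0.22; limma, adjusted p = 0.016). Gnaq (0.31) and Gna13 (0.22) rose by less. Gnaq turned to -0.22 and Gna13 to -0.31 under the older spike-in scaling, and neither passed under the first (0.10 and 0.01).

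Of 16 beta and gamma subunits measured, 5 rose, 1 fell and 10 did not pass, with a median of 0.06. Gng2 gave 5017, 4250 and 4728 on KI arrays and 1141, 1614 and 1724 on WT arrays, a difference of 1.66 in log2 units (SE 0.17; limma, adjusted p = 0.0039). Gnb4 fell, with 629, 658 and 578 on KI arrays and 1437, 1135 and 1216 on WT arrays, a difference of -1.02 in log2 units (SE 0.11; limma, adjusted p = 0.0041). Gngt2 (0.99) and Gng12 (0.43) also rose, the first to 0.46 and not passing and the second turned to -0.10 under the older spike-in scaling. Alpha subunits passed as higher numbered 3 without KI 1 and 2 without KI 3, and beta and gamma subunits 3 without KI 1, KI 3 or WT 3. Over all 18193 genes, 1251, 894 and 1749 were higher without KI 1, KI 3 or WT 3, against 2164 as deposited. Gna12 did not pass without KI 1 (1.08) or KI 3 (1.18), nor Gna13 without KI 3 (0.22).

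Among effectors, Plcb4, a phospholipase C that Gq activates, fell, with 499, 689 and 654 on KI arrays and 2074, 1418 and 1371 on WT arrays, a difference of -1.39 in log2 units (SE 0.21; limma, adjusted p = 0.0089). Its relatives Plcb3 (0.42) and the dim Plcb1 (0.38) and the adenylyl cyclase Adcy9 (0.84) rose. Of 14 adenylyl cyclases and phospholipases C beta measured, 4 rose, 1 fell and 9 did not pass, with a median of 0.14. The 4 rises became 0 without KI 1, 1 without KI 2, KI 3 or WT 2 and 0 under the older spike-in scaling, where Plcb3 turned to -0.11 and Plcb1 to -0.15. Over all 18193 genes, the 2164 rises became 1251 without KI 1. They became 1393, 894 and 1309 without KI 2, KI 3 or WT 2, and 421 under the older scaling. The falls numbered 3 under the spike-in scaling, beside 1 rise, and 5 under the older one. Plcb1 was -0.01 with probe sets that can match several transcripts left out. Of 14 other regulators of alpha subunits measured, 0 passed in either direction by limma, with a median of 0.09, and 3 (Gpsm3, Arhgef1 and Arhgef12, named after their values were seen) had an unadjusted p under 0.05.

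The list of receptors was the largest and had the most calls. Of 38 receptors of macrophages and osteoclast precursors measured, 18 rose, 4 fell and 16 did not pass, with a median log2 difference of 0.45. Under the older spike-in scaling 14 were higher and 10 lower, with a median of -0.08. P2ry12, a receptor for ADP, gave 1692, 1531 and 1403 on KI arrays and 272, 451 and 449 on WT arrays, a difference of 2.01 in log2 units (SE 0.22; limma, adjusted p = 0.0044). S1pr1, which draws cells towards sphingosine 1-phosphate and out of bone marrow into blood, gave 656, 602 and 692 on KI arrays and 108, 205 and 181 on WT arrays, a difference of 2.03 in log2 units (SE 0.25; limma, adjusted p = 0.0057). Fpr2, a formyl peptide receptor, rose by 0.76 (SE 0.06, adjusted p = 0.0021 by limma) and was 0.23 and not passing under the older spike-in scaling. Gpr132, a receptor of macrophages for lipids and acid, fell, with 140, 104 and 111 on KI arrays and 504, 591 and 693 on WT arrays, a difference of -2.33 in log2 units (SE 0.17; limma, adjusted p = 0.0019). The rises numbered 9 without KI 1 or WT 2, 10 without KI 2 and 6 without KI 3. Over all 18193 genes they were 1251, 1309, 1393 and 894 in that order, against 2164 as deposited. The falls numbered 2 without KI 1 or KI 2 and 6 without WT 1. Over all genes they were 1510, 1773 and 2388 in that order, against 2704 as deposited.

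Calcium and NFAT genes, downstream of Gq and of RANK co-receptors, moved in both directions. Nfatc1 gave 3319, 3852 and 3544 on KI arrays and 7800, 6541 and 7065 on WT arrays, a difference of -1.0 in log2 units (SE 0.09; limma, adjusted p = 0.0028). Its relative Nfatc2 gave 2533, 2235 and 2283 on KI arrays and 722, 1033 and 1056 on WT arrays, a difference of 1.35 in log2 units (SE 0.16; limma, adjusted p = 0.0054), on 1 of 6 probe sets called. Ppp3ca, a catalytic subunit of calcineurin, rose by 0.80 (SE 0.13) and Itpr2, a calcium release channel of the endoplasmic reticulum, by 0.54 (SE 0.09). Under the older spike-in scaling these were 0.27 and 0.01 and neither passed. Among the 14 measured, 6 passed as higher, 1 as lower and 7 in neither direction, with a median of 0.07. Under the spike-in scaling 4 were higher and 3 lower, and under the older one 1 was higher and 4 lower, with a median of -0.46. The rises numbered 4 without KI 1 or WT 2 and 2 without KI 3, where Itpr2 did not pass (0.51). Over all 18193 genes, 1251, 1309 and 894 were higher without KI 1, WT 2 or KI 3, against 2164 as deposited.

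Over all lists outside the members, 41 of the 129 measured genes passed as higher, 7 as lower and 81 in neither direction, with a median log2 difference of 0.09 where that of all genes was -0.00. The rises numbered 21 without KI 1, 25 without KI 2, 15 without KI 3 and 23 without WT 2. Over all 18193 genes they numbered 1251, 1393, 894 and 1309 in that order, against 2164 as deposited. Under the spike-in scaling 30 rose and 19 fell, and under the older one 18 rose and 36 fell. Of all 18193 genes, 1281 were higher and 4946 lower under the first scaling, and 421 and 8198 under the older one. The macrophage marker sum moved with the rises of the listed genes as deposited. Adgre1 is counted in both, and the part of the marker sum in the rises was not tested.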

How the data were processed

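Gene expression was measured on Affymetrix mouse arrays, 3 KI and 3 WT. The deposited values are linear intensities for 45101 probe sets, made by the authors with Expression Console per the submitters' processing notes; how that program summarised and normalized the probes, and in which version, is not given here. The 64 control probe sets were left out. Intensities were floored at 16 and put on the log2 scale, and probe sets with a mean above the median of all (22518) were fitted with limma 3.58.1 (R 4.3.3, lmFit and eBayes with trend), KI against WT, with Benjamini-Hochberg adjustment at 0.05. A second fit took the brightest probe set of each of 18193 genes, without the filter. Of the 45037 probe sets left, 34945 had 1 platform gene symbol, 932 had several and 9160 had none here; 34741 matched the reference table (GRCm38.p6).

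The members and all gene lists were chosen with earlier results of these data known. Named were every member, every other RGS gene and receptor kinase above the filter, in each list all genes that passed or, above 4, the 4 of smallest p, and the 3 nearest profiles of the 2 members with the largest rise and the 2 with the largest fall. Levels of different probe sets were not compared. The fit was tested on simulated data. Precision is limited by the number of arrays. Alternatives changed the scaling, filter, floor, moderation, weights, blocking, covariate, probe sets and arrays used.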

Additional observations from a re-analysis of the deposited data

How the results depend on the processing

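The calls of Rgs18 and Grk3 held in every alternative in which their probe sets were tested. All alternatives used the arrays on which the members had been chosen, so this is a description and no independent support. Rgs14 was -0.07 under the older spike-in scaling, where the median of all tested probe sets was -0.57. Under that scaling 2 member probe sets were higher in place of 6. With multi-transcript probe sets left out 1 was lower in place of 3. That setting drops the Grk3 probe sets 1434450_s_at and 1440801_s_at, and the remaining 1439178_at kept its call. Over the table, 10101 probe sets were called as deposited, 6184 with a replicate block and 6481 with the description number as a covariate; those higher were 4345 as deposited, 2546 and 728 under the spike-in and older spike-in scalings, 2693 with the block and 2844 with the covariate. Of the genes outside the members, 41 rose as deposited, 18 under the older spike-in scaling, 2 with the block, 12 with the covariate and 15 to 39 with 1 array left out; 7 fell as deposited, 19 and 36 under the scalings, 16 with array weights and 1 with the block. Over all 18193 genes, 2164 were higher and 2704 lower as deposited. Under the older spike-in scaling these counts were 421 and 8198. With 1 array left out, 894 to 1993 of all genes were higher, and with the covariate 707. The cause was not tested.

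KI and WT arrays share replicate numbers, and the deviations of same-numbered arrays from their group means correlated at -0.40, -0.29 and -0.30. With 3 arrays a group these deviations are tied to each other. The values therefore cannot decide whether same-numbered arrays were paired. With the replicate block, Rgs2 (1419247_at) was 0.64 and not called, and of 48 other genes called 45 did not pass. Over all 18193 genes of that fit, 146 passed as higher and 198 as lower with the block, against 2164 and 2704 as deposited. Nothing particular to the 48 genes is read from their loss. Precision was limited by the 3 arrays a group, and 6 member probe sets lay below the filter and were not tested.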
